A study of Homo sapiens with 12 samples.

Results

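Ubiquitin-specific proteases (USPs) are the largest family of deubiquitinases, enzymes that take ubiquitin off other proteins. Described here are 42 USP genes other than USP51 and its close relatives. The list was set by gene name, with earlier results of these data known. All 42 were matched by symbol and NCBI gene identifier among the 17818 genes of the deposited table.

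The study asked what overexpression of USP51 does to 2 human colorectal cancer cell lines. SW480 cells carrying USP51 (genotype USP51-OE) were set against SW480 cells with a control vector (NC), and HCT116 cells carrying USP51 against HCT116 cells with the vector. The labels list 3 libraries for each of the 4 groups. They do not say what promoter drove USP51, or whether the cells were pools or single clones. Only the authors' mean of each group could be tied to a group by name, so every value below is 1 mean, and no standard deviation or p-value is given. The means are named by line with a letter C or E, read here as control and USP51 overexpression.

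USPs cleave the bond between ubiquitin and a protein, or between ubiquitin units of a chain, with a cysteine in a catalytic domain that the family shares. What differs between members is mostly the flanking domains and partner proteins, which steer each enzyme to its substrates. Known substrates include histones, DNA repair factors, the ubiquitin ligase MDM2, receptors on endosomes, and proteins on their way to the proteasome. A few members lack catalytic residues and act as parts of larger assemblies.

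The groups matched their labels where this could be checked. USP51 was at 25.7 TPM (transcript abundance corrected for length and scaled to the same total in every group) in SW480 with USP51 against 0.513 TPM in SW480 NC, and at 40.8 TPM in HCT116 with USP51, against a value listed as 0 in HCT116 NC. Mean totals were 15506686 to 15920306 estimated counts per group. Of 6 epithelial markers, 6 were at 1 TPM or more in both SW480 groups and 5 in both HCT116 groups, where VIL1, the gene of a brush border protein, was at 0.02 to 0.03 TPM. Of the fibroblast, leukocyte and endothelial markers only CD68, which epithelial lines also express, reached 1 TPM, at 3.98 to 6.96 TPM.

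Nearly all of the 42 listed members were expressed. At 1 TPM or more stood 40 members in both SW480 groups and 41 in both HCT116 groups. Together the 42 genes made up 974.3 TPM in SW480 with USP51, 1041 TPM in SW480 NC, 1075 TPM in HCT116 with USP51 and 1056 TPM in HCT116 NC, which is 0.0974% to 0.107% of all TPM. The 10 highest members of a group held 60.3% to 61.5% of that sum. The median expressed member stood at 16.2 TPM in SW480 with USP51 and 16.7 TPM in SW480 NC, and at 13.9 TPM in HCT116 with USP51 and 13.6 TPM in HCT116 NC. The median of all genes at 1 TPM or more was 17.1 to 18.2 TPM, so the listed members sat around the middle of the expressed genes. This holds for the list and not for every USP gene.

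The most abundant member by its mean over the groups was USP39 (NCBI gene 10713, chromosome 2, 85602861 to 85649283, GRCh38.p14), which encodes a spliceosome protein without a working catalytic centre. USP39 was at 99.6 TPM in SW480 with USP51, 103 TPM in SW480 NC, 110.4 TPM in HCT116 with USP51 and 114 TPM in HCT116 NC. Second was USP5, the enzyme that takes apart free ubiquitin chains, at 84 TPM in SW480 with USP51, 91.5 TPM in SW480 NC and 104 TPM in both HCT116 groups. USP10, a cytoplasmic enzyme that binds the stress granule protein G3BP1, came next, at 64.7, 63.9, 120.4 and 119 TPM in the same order of groups. It was the highest member of all in HCT116, whereas USP39 led in SW480.

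The fourth was USP11, a nuclear enzyme linked to DNA repair, at 75.3 TPM in SW480 with USP51, 81.3 TPM in SW480 NC, 53.4 TPM in HCT116 with USP51 and 51.9 TPM in HCT116 NC. USP7, which deubiquitinates MDM2, was at 49.3, 50.9, 66.4 and 64.6 TPM in those groups. The other members of the top 10 by mean level were USP1, USP14, USP16, USP48 and USP19, each between 25.7 and 63.9 TPM in every group. At the other end, USP44, a nuclear member active on histones and at the mitotic checkpoint, was at 0.03 to 0.0667 TPM in the 4 groups, on at most 2.33 counts. No comparison was made for it. USP2 was the member present in 1 line, at 5.84 TPM in HCT116 with USP51 and 3.92 TPM in HCT116 NC but 0.427 TPM in SW480 with USP51 and 0.293 TPM in SW480 NC.

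**Figure D1:**
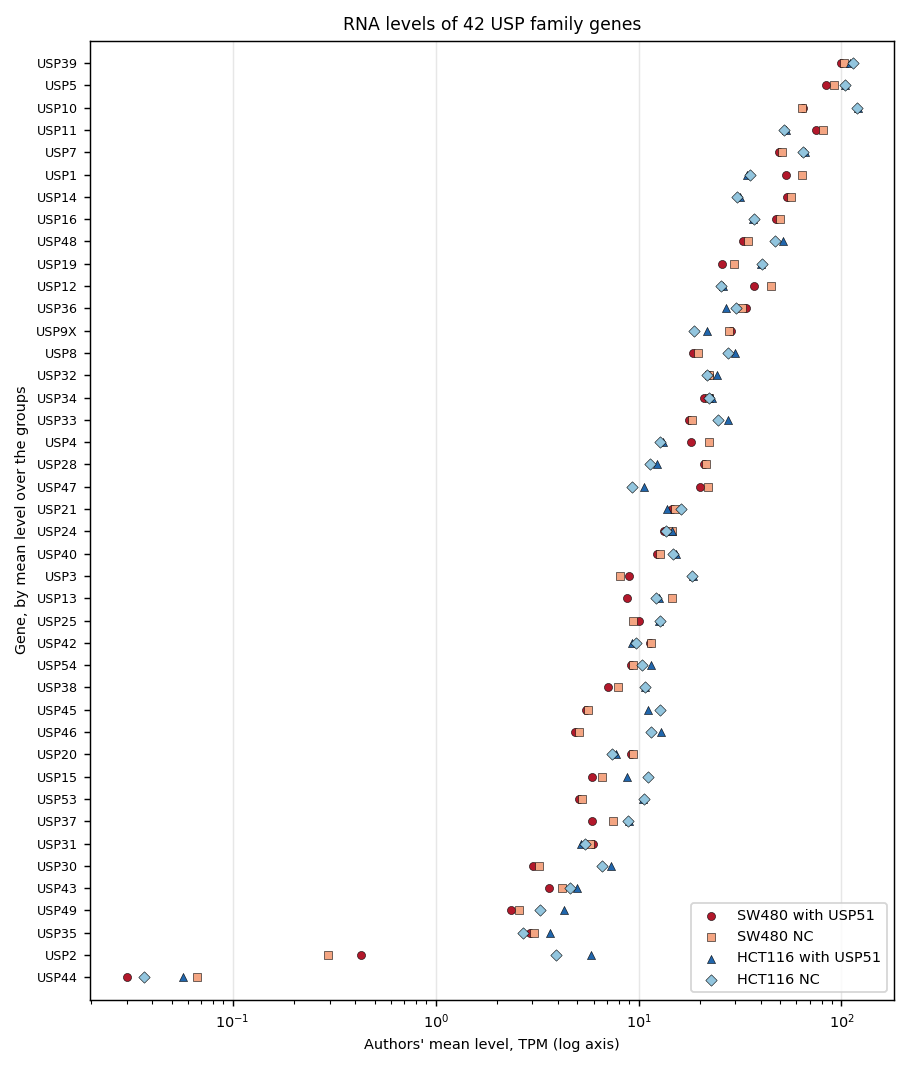
Levels of the 42 USP genes as authors' group means in TPM on a log axis, 1 row per gene in order of mean level, with circles for SW480 with USP51, squares for SW480 NC, triangles for HCT116 with USP51 and diamonds for HCT116 NC. Within a line the 2 marks mostly lie on top of each other, and the lines differ most at USP2, at 0.293 TPM in SW480 NC and 3.92 TPM in HCT116 NC.

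Whether raising USP51 shifts other USPs was asked in each line. Ratios are log2 of (TPM + 1) with USP51 over (TPM + 1) in NC, for genes at 1 TPM or more in at least 1 of both groups, and those of at least 1.5-fold were counted, which is a size threshold with no test behind it. All members that met the filter did so in both groups of a line. In SW480, 1 of 40 members was at least 1.5-fold lower with USP51, against 0.879% of 12175 genes, and none was 1.5-fold higher, against 0.534%. None was 2-fold apart, against 0.197% of genes. With 40 members, a single call is not set apart from that background. Over all genes 65 were higher and 107 lower, a split that was 106 and 91 in library-scaled counts (CPM) with RLE factors. The member was USP13.

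USP13 (NCBI gene 8975, chromosome 3, 179653040 to 179789401) is the close relative of USP5. It was at 8.79 TPM in SW480 with USP51 and 14.6 TPM in SW480 NC, a log2 ratio of -0.68. In HCT116 the levels nearly coincided, at 12.6 TPM with USP51 and 12.2 TPM in NC, a log2 ratio of 0.04. The SW480 means rested on 575 counts with USP51 and 835 counts in NC. Their ratio per total count was 0.676, with a 95% exact interval of 0.607 to 0.753 that covers counting error only. In HCT116 the count ratio was 0.991 (0.894 to 1.1).

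The call for USP13 depended on the processing. In FPKM the log2 ratio was -0.61 and still past 1.5-fold. In CPM, which has other scaling factors and no length correction, it was -0.54 with RLE or TMM factors and -0.55 with upper-quartile factors, just short of the 1.5-fold threshold at -0.58, and with curated transcripts alone it was -0.46. The direction was the same in each of these settings. Of the 5 transcripts in the table, the curated NM_003940.3 was at 5.33 TPM in SW480 with USP51 and 7.71 TPM in SW480 NC, a count ratio of 0.713 (0.63 to 0.805). The predicted transcript XM_017007425.1 was at 1.89 TPM with USP51 and 3.77 TPM in NC, a count ratio of 0.512 (0.368 to 0.708). Another 2 predicted transcripts were lower with USP51 as well, and the fifth, XM_011513269.1, was at 0.237 TPM with USP51 and 0.113 TPM in NC with an interval of 0.949 to 5.44. How reads were divided among transcripts that share exons is not given in the sources used here, so single transcripts are less certain than the gene.

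**Figure D2:**
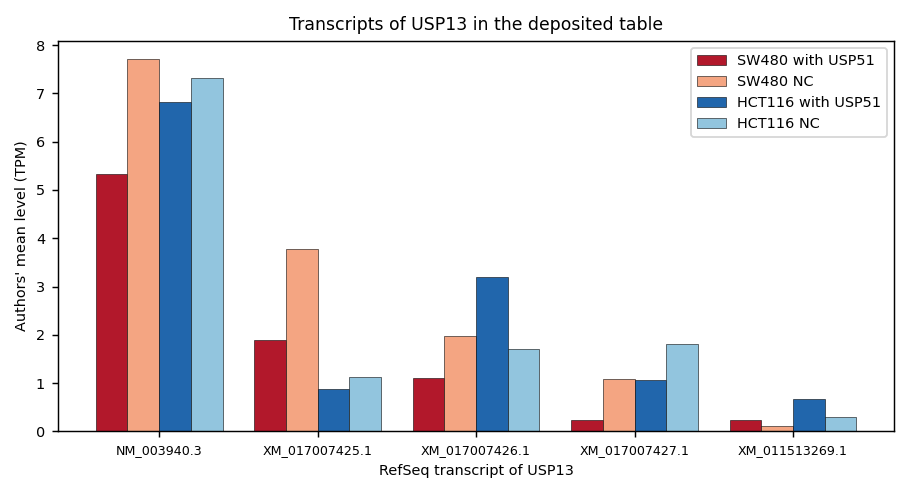
Levels of the 5 RefSeq transcripts of USP13 as authors' group means in TPM, with bars in the order SW480 with USP51, SW480 NC, HCT116 with USP51 and HCT116 NC. The first SW480 bar is below the second for the 4 leading transcripts, at 5.33 and 7.71 TPM for NM_003940.3, and the HCT116 bars show no common direction.

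The start regions of USP13, the single member past 1.5-fold in SW480 in TPM, and of its relative USP5 are shown. USP5 was lower there as well, at a log2 ratio of -0.12 with a counting interval of 0.896 to 0.999. Whether either sequence bears on these values was not tested. Each is 250 bases before to 50 bases after the RefSeq start of the gene in GRCh38.p14, 5′ to 3′ on the strand of the gene, with every CG dinucleotide in capitals. USP13 lies on the plus strand (chr3:179652790-179653089), as does USP5 (chr12:6851900-6852199).
USP13: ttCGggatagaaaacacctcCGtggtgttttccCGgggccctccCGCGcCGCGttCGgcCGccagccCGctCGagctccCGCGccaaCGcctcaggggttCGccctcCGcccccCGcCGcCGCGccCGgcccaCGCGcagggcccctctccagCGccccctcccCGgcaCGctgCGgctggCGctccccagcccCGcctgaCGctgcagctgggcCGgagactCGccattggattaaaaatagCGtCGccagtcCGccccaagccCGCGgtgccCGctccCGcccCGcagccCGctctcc
USP5: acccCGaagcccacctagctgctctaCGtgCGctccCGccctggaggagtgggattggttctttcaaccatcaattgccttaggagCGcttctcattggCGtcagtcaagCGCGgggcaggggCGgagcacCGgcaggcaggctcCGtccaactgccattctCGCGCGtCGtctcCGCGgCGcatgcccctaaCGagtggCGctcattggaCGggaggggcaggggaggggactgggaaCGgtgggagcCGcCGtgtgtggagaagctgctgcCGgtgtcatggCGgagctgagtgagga
These windows hold 41 CG dinucleotides for USP13 and 26 for USP5.

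RefSeq start windows of this length were found for 34 of the 42 genes, 46 windows in all, since some genes have several. A start can lie inside a gene, as it does for USP2, and the transcripts that use each start were not compared. The median window of the members held 30.5 CG dinucleotides and was 68.3% G or C, against 14 and 58.7% over all 35116 windows. All windows together cover 27305 genes, expressed here or not. Nearly all members were expressed, and windows of expressed genes alone were not compared. At least 10 CG dinucleotides were found in 38 of the 46 windows (82.6%), against 56.4% of all windows. The letters TATAAA, sought on both strands, were in 3 windows (6.52%, against 11.5% of all). The letters ACGTG, a form of the core of the hypoxia response element, were sought on both strands. They were in 10 windows (21.7%, against 21.4% of all), among them that of USP5. The other form of that core, GCGTG, was not counted, so these counts do not cover it. It can be read in the USP13 window above as CACGC, its reverse complement. Both printed windows thus hold a form of the core. These are descriptions of sequence, and no binding was measured.

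Below the size rule, members in SW480 mostly lay slightly under their control level. With USP51, 33 of 40 members were below NC by any amount, against 61.1% of all genes, and the 7 above it (38.8% of genes) were USP3, USP9X, USP10, USP25, USP31, USP32 and USP36. The median log2 ratio was -0.06, against -0.04 over all genes tested. This split rested on the scaling. With RLE factors in CPM 21 members were below and 19 above, with TMM factors 22 and 18, and in FPKM 24 and 16. After USP13 the largest ratios were those of USP37, USP4, USP12 and USP1, each between -0.26 and -0.31.

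USP37, a cell cycle enzyme that acts on cyclin A, was at 5.87 TPM in SW480 with USP51 and 7.49 TPM in SW480 NC. USP4, an enzyme of growth and stress signalling, was at 18.2 TPM with USP51 and 22.4 TPM in NC. USP12, a partner of the activator protein WDR48, was at 36.9 TPM with USP51 and 45 TPM in NC. USP1, which with WDR48 removes ubiquitin from the repair proteins FANCD2 and PCNA, was at 53 TPM with USP51 and 63.9 TPM in NC. Their count ratios were 0.84 to 0.856, and the 4 intervals lay below 1. In HCT116 the same 4 genes had log2 ratios of -0.04 to 0.05. Intervals below 1 in SW480 were found for 8 of 40 members (20%), against 14.2% of genes, and intervals above 1 for 5, against 13.6%.

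In HCT116 none of 41 members was at least 1.5-fold higher with USP51, against 1.96% of 12393 genes, and none was 1.5-fold lower, against 0.145%. The counts were the same in CPM with each set of factors, in FPKM and with curated transcripts alone. None was 2-fold apart, against 0.282% of genes. At a lower bar of 0.32 on the log2 scale 2 members were higher, USP2 and USP35, against 8.58% of genes, and none was lower, against 1.11%. Above NC by any amount lay 28 of 41 members, against 60.8% of genes, with a median log2 ratio of 0.04 that equals that over all genes to 2 decimals. With RLE factors in CPM 20 members were above and 21 below. Counting intervals lay above 1 for 7 members (17.1%, against 17.1% of genes) and below 1 for 2, USP21 and USP36, against 11.7% of genes.

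USP2, an enzyme that acts on MDM2 and cyclin D1, had the largest ratio in HCT116 in TPM. It was at 5.84 TPM with USP51 and 3.92 TPM in NC, a log2 ratio of 0.47, on 170 and 125 counts (ratio 1.39, interval 1.1 to 1.76). With curated transcripts alone the log2 ratio was 0.23, below the 0.31 of USP49. USP35 was at 3.67 TPM in HCT116 with USP51 and 2.71 TPM in HCT116 NC, with a count ratio of 1.24 whose interval of 0.946 to 1.62 included 1. With curated transcripts alone its log2 ratio of 0.33 was -0.12. USP49, which acts on histones, was at 4.31 TPM with USP51 and 3.27 TPM in NC, a log2 ratio of 0.31 with a counting interval of 1.06 to 1.46 for the ratio. USP9X, a large enzyme of membrane trafficking and cell survival, was at 21.8 TPM with USP51 and 18.7 TPM in NC (count ratio 1.14, 1.07 to 1.21). It has a closely similar copy on the Y chromosome, and reads could pass between them.

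The lowest ratio in HCT116 was that of USP15, an enzyme of TGF-beta receptor signalling, at 8.76 TPM with USP51 and 11.1 TPM in NC, a log2 ratio of -0.31. Its count ratio was 0.968 (0.881 to 1.06), and in CPM the log2 ratio was -0.06 to -0.07. The TPM difference lay mostly in 1 transcript, NM_001351161.2, at 0.207 TPM with USP51 and 2.16 TPM in NC on 0.633 and 6.87 counts. For USP15 the large TPM step therefore rests on a handful of reads.

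**Figure D3:**
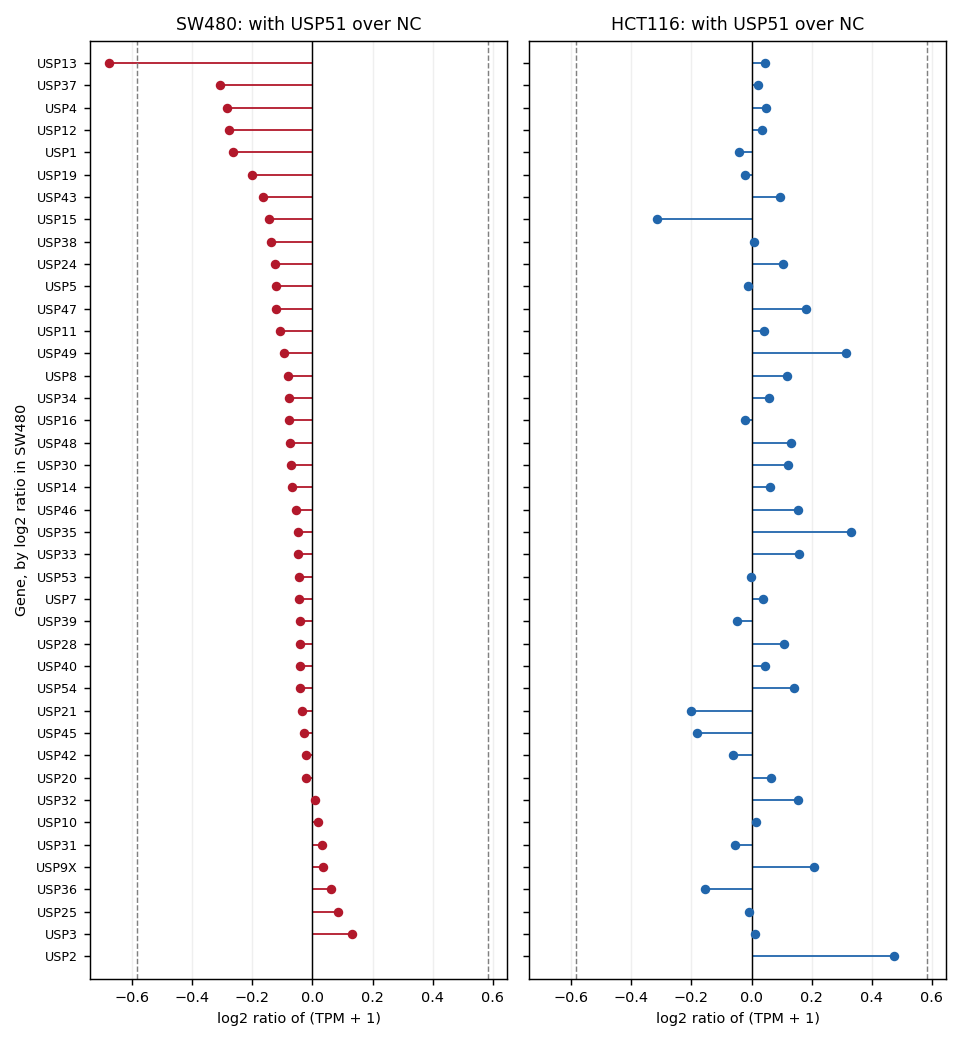
Log2 ratio of (TPM + 1) with USP51 over NC for 41 USP genes, SW480 in the left panel (no point for USP2, which was below 1 TPM there) and HCT116 in the right, ordered by the SW480 value, with dashed lines at 1.5-fold. USP13 in SW480, at -0.68, is the only point beyond a dashed line.

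By role, no group of members moved past 1.5-fold apart from USP13. The DNA damage, replication and cell cycle group held USP1, USP28, USP37, USP45, USP47 and USP48. Of these, 6 of 6 lay below NC in SW480, where 61.1% of all genes did, with a median log2 ratio of -0.10. In HCT116, 4 of 6 lay above NC, where 60.8% of genes did, with a median of 0.07. The endosome and membrane enzymes were USP8, USP9X, USP12, USP32 and USP46. Of these, 5 of 5 lay above NC in HCT116, against 60.8% of genes, with a median of 0.15, and 2 of 5 in SW480, against 38.8%. The chromatin enzymes USP3, USP7, USP11, USP16, USP21 and USP49 ranged from -0.11 to 0.13 in SW480 and from -0.20 to 0.31 in HCT116. These sides of NC shift with the scaling as described above.

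USP20 and USP33, which bind the VHL protein of the oxygen-sensing pathway, were under 1.5-fold apart in both lines. USP20 was at 9.2 TPM in SW480 with USP51 and 9.36 TPM in SW480 NC, and at 7.75 TPM in HCT116 with USP51 and 7.37 TPM in HCT116 NC. USP33 was at 17.6 TPM in SW480 with USP51 and 18.3 TPM in SW480 NC, and at 27.7 TPM in HCT116 with USP51 and 24.7 TPM in HCT116 NC, a count ratio of 1.1 (1.01 to 1.2). USP19, anchored in the endoplasmic reticulum, was at 25.7 TPM in SW480 with USP51 and 29.6 TPM in SW480 NC, a count ratio of 0.882 (0.816 to 0.953). USP36, the nucleolar member, was at 27 TPM in HCT116 with USP51 and 30.2 TPM in HCT116 NC (count ratio 0.859, 0.80 to 0.923), and at 33.7 TPM in SW480 with USP51 and 32.3 TPM in SW480 NC (1.09, 1.02 to 1.16). USP34, a scaffold-sized enzyme of WNT signalling, was at 21 TPM in SW480 with USP51, 22.2 TPM in SW480 NC, 23.1 TPM in HCT116 with USP51 and 22.2 TPM in HCT116 NC.

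The response was compared between lines as the log2 ratio in HCT116 minus that in SW480, with no test. Of 40 members measured in both, 1 differed by at least 1.5-fold upward, against 3.95% of 11332 genes, and none downward, against 0.459%. None differed by 2-fold, against 0.653%, and 5 by 0.32 or more on the log2 scale, against 18.2%. It was USP13, with a difference of 0.72, which was 0.50 in CPM with RLE factors and 0.37 with curated transcripts alone. The median difference was 0.15, against 0.08 over all genes, and with RLE factors it was 0.04 against -0.02, a shift of the all-gene median by -0.10. Members below NC in SW480 and above it in HCT116 numbered 23 of 40 in TPM, against 38.1% of genes. This count was not made in CPM. With RLE factors 28 of 40 members kept their TPM side of NC in SW480, and 31 of 41 in HCT116.

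The lines themselves differed far more than the groups within a line. Between SW480 NC and HCT116 NC, 7 of 41 members were at least 1.5-fold higher in SW480, against 22.6% of 13033 genes, and 8 were lower, against 27.0%. The list was thus apart in 36.6% of its measured members, below the 49.7% of all genes. At 2-fold 5 members were apart, against 28% of genes, and at 0.32 on the log2 scale 24 were, against 70.5%. USP2 passed the filter only through HCT116, where it was high. The median absolute log2 ratio of members was 0.42, against 0.58 for all genes.

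Higher in SW480 was above all USP47, an enzyme of base excision repair, at 22 TPM in SW480 NC and 9.29 TPM in HCT116 NC, a count ratio of 2.41 (2.22 to 2.62). USP28, which stabilises the MYC protein, was at 21.6 TPM in SW480 NC and 11.4 TPM in HCT116 NC (1.91, 1.71 to 2.13). USP14, which trims ubiquitin chains at the proteasome, was at 56.6 TPM in SW480 NC and 30.4 TPM in HCT116 NC (1.88, 1.76 to 2). USP1, USP12, USP4 and USP11 completed the 7, with count ratios of 1.58 to 1.82.

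Lower in SW480 was first of all USP2, with a count ratio of 0.0729 (0.0326 to 0.143) on 8.67 counts in SW480 NC and 125 in HCT116 NC. USP3, a chromatin enzyme of the DNA damage response, was at 8.12 TPM in SW480 NC and 18.4 TPM in HCT116 NC (0.448, 0.401 to 0.501). USP46 was at 5.07 TPM in SW480 NC and 11.5 TPM in HCT116 NC (0.444, 0.394 to 0.499), and USP45, known to act on the repair nuclease subunit ERCC1, at 5.63 TPM in SW480 NC and 12.7 TPM in HCT116 NC (0.376, 0.316 to 0.446). USP10 was at 63.9 TPM in SW480 NC and 119 TPM in HCT116 NC (0.541, 0.512 to 0.57), the largest step in TPM of any member. USP30, which opposes the ligase Parkin on the mitochondrial surface, USP53, long classed as inactive, and USP15 had count ratios of 0.485 to 0.663.

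In CPM, 14 of these 15 members stayed past 1.5-fold with each set of factors. USP15 dropped out at a log2 ratio of -0.49 to -0.57, and USP9X and USP37 came in. Of the USP15 level in HCT116 NC in TPM, 19.4% was NM_001351161.2, on 6.87 counts. That transcript was listed at 0 in SW480 NC, so the TPM call of USP15 leans on few reads.

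**Figure D4:**
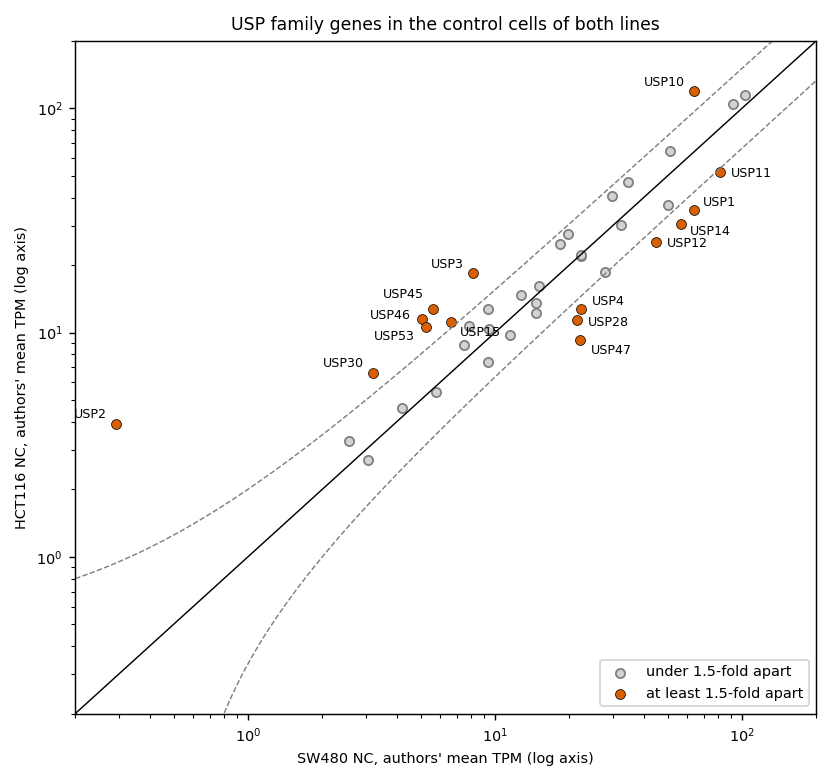
Authors' mean TPM of 41 USP genes in SW480 NC (horizontal) and HCT116 NC (vertical), both on log axes, with a solid line of equal level and dashed lines at 1.5-fold in (TPM + 1). The 15 orange points lie beyond a dashed line, 7 of them below the solid line (higher in SW480) and 8 above it.

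Several members come as pairs of close relatives, listed here from textbook relations after the values had been seen, so their count describes this list alone. Of 10 pairs with both genes measured, 8 (80%) had a gene that was higher and a partner that was lower in SW480 NC than in HCT116 NC. Among all 820 pairs of the 41 measured members that share was 50.5%. A list made after the values were seen cannot be weighed against it. Some of the 8 pairs lay near 0, such as USP31 with USP43 at log2 ratios of 0.08 and -0.11. USP11, another relative of USP4 and USP15, was not in the list and lay on the side of USP4, at 0.64 against 0.77. In CPM the count was 7, since USP31 and USP43 then had the same side. For USP4 with USP15 and USP12 with USP46 both genes were 1.5-fold apart, USP15 in TPM but not in CPM.

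USP12 exceeded USP46 by 8.86 times in SW480 NC and 2.21 times in HCT116 NC on the TPM scale. Both pair with WDR48, which itself was at 17 TPM in SW480 NC and 17.3 TPM in HCT116 NC. USP16 exceeded USP45 by 8.88 times in SW480 NC and 2.91 times in HCT116 NC. USP4 exceeded USP15 by 3.38 times in SW480 NC and 1.14 times in HCT116 NC. The HCT116 NC level of USP15 includes NM_001351161.2, at 2.16 TPM on 6.87 counts. USP25 stood at 0.436 times the level of USP28 in SW480 NC and 1.12 times in HCT116 NC. The pairs that shared a side were USP36 with USP42 and USP53 with USP54.

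**Figure D5:**
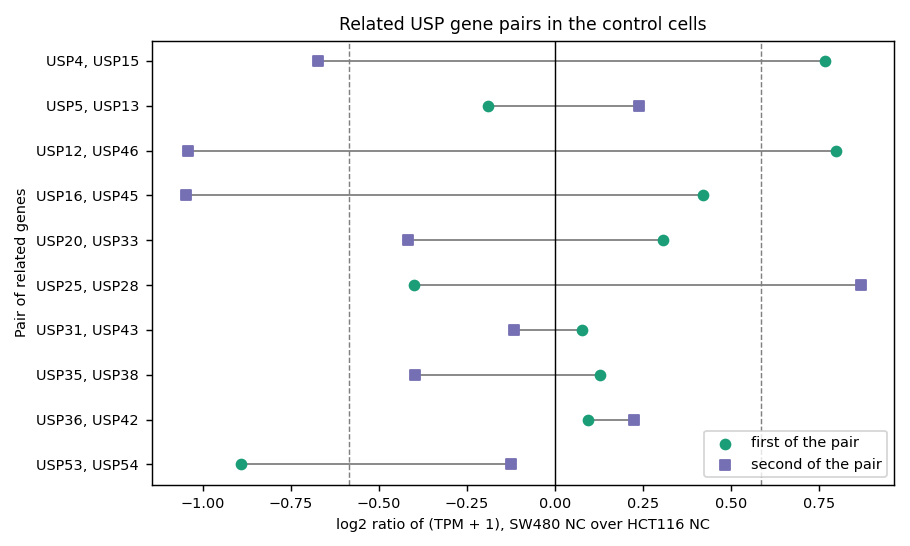
Log2 ratio of (TPM + 1) in SW480 NC over HCT116 NC for 10 pairs of related USP genes, with a circle for the first gene, a square for the second, a line joining them and dashed lines at 1.5-fold. In 8 of 10 rows the marks lie on opposite sides of 0.

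Other genes of ubiquitin removal were looked at beside the family. Among 32 genes of other deubiquitinase families, 24 lay below NC in SW480, where 61.1% of all genes did, with a median log2 ratio of -0.03. They were listed by family and not by shown activity on ubiquitin, COPS5 among them. Only UCHL1 was 1.5-fold lower with USP51, against 0.879% of all genes. UCHL1, a neuronal-type ubiquitin hydrolase, was at 5.31 TPM in SW480 with USP51 and 9.1 TPM in SW480 NC, and was listed at 0 in both HCT116 groups. In HCT116, 19 of 31 lay above NC, where 60.8% of all genes did, with a median of 0.05. None passed 1.5-fold, against 1.96% of genes higher and 0.145% lower. Between SW480 NC and HCT116 NC, 8 of the 32 were 1.5-fold higher in SW480, against 22.6% of all genes, and 8 lower, against 27.0%. Among 5 partner proteins of USPs the largest ratio was that of GMPS, an enzyme of guanine nucleotide synthesis that binds USP7, at 33.9 TPM in SW480 with USP51 and 45.2 TPM in SW480 NC (log2 ratio -0.40, against 0.01 in HCT116). Of 6 genes for ubiquitin and its activating enzymes none was 1.5-fold apart with USP51 in either line, and UBB, the most abundant, was at 2491 TPM in SW480 with USP51, 2616 TPM in SW480 NC, 3229 TPM in HCT116 with USP51 and 3303 TPM in HCT116 NC.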

How the data were processed

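RNA of SW480 and HCT116 cells was extracted with TRIzol and sequenced on a BGISEQ platform, per the labels' protocols. TopHat, DESeq 1.32.0 and the build hg38 are named in the submitters' processing notes; the sources used here do not state their roles, the counting tool or any use of strand. The series' table gives, per the file headers, estimated counts (not whole, not divided by depth), TPM scaled by the authors to 1 fixed total and FPKM scaled by the authors to length and depth, each as the authors' mean of a group. Another 36 columns of single libraries have codes that match no label and were not used. The edgeR tests planned for single libraries were therefore not run.

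Transcripts (84345) were summed per gene, and 17672 of 17818 genes had a symbol in the RefSeq table of GRCh38.p14. Genes at 1 TPM or more in at least 1 of both groups were compared as log2 ratios of (TPM + 1), a scale that understates differences of low genes. Ratios of counts per total count have 95% intervals (exact Clopper-Pearson, given the summed counts) from means rounded to whole counts. They treat a mean as 1 library and cover counting error only. Scaling factors came from edgeR 4.0.16 in R 4.3.3 on rounded counts. Other steps used Python 3.11.15, pandas 2.3.3 and SciPy 1.17.1. The size rule and intervals were run on simulated counts with counting error alone and planted changes larger than 1.5-fold. That run cannot show how they do with spread between replicates.

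The members, roles, lists and pairs were chosen with earlier results of these data known. Described in full were the 10 most abundant members, those past 1.5-fold in any comparison, the 5 largest ratios per line with USP51, members under 1 TPM, and up to 3 more per role group. USP20 and USP33 were added after their values were seen. Sequences are from RefSeq (GRCh38.p14).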

Additional observations from a re-analysis of the deposited data

How the results depend on the processing

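No paired analysis was possible because the libraries of a group were used only as the authors' mean, and leaving out single replicates was not run for the same reason. Each summary was recomputed with CPM under RLE, TMM and upper-quartile factors, FPKM, a pseudocount of 0.1, no filter, at least 20 counts, and curated transcripts alone, and counts also at 2-fold and at a lower threshold of 0.32 on the log2 scale. The SW480 count of 1 member was 0 with each set of CPM factors and at 2-fold. It remained 1 with curated transcripts alone, but the member was then USP36 (log2 ratio 1.02) and not USP13. That ratio rests on NM_001321291.1, the only curated of 13 USP36 transcripts, at 1.03 TPM in SW480 with USP51 and 0 in SW480 NC. It held 3.06% of the USP36 level with USP51, and over all transcripts the log2 ratio of USP36 was 0.06. The HCT116 count of 0 was 2 at the lower threshold and 0 in every other setting. Between the control groups the count of 15 was 5 at 2-fold, 24 at the lower threshold and 15 to 17 otherwise. The count of 1 member whose response differed between lines was 0 with each set of CPM factors, with curated transcripts alone and at 2-fold, and 5 at the lower threshold. The CPM settings differ from TPM in length correction and in scaling factors, and the cause of the change for USP13 was not tested. The median ratio of members in SW480 ranged from -0.08 to -0.01 over the settings and that in HCT116 from -0.01 to 0.05, with a change of sign under RLE and TMM factors. Each of 162 single values was compared with its main TPM value, and the shift was set against the distance from middle to end of the counting interval in log2. For differences between lines the distances of both lines were combined. In at least 1 setting 47 values moved by that distance or more, and none that passed 1.5-fold changed sign. The means carry no replicate spread, and depth limits USP44, USP2 in SW480 and single transcripts.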

Other observations

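The transcript makeup of some members differed more between the lines than their totals. USP37 was at 7.49 TPM in SW480 NC and 8.84 TPM in HCT116 NC, but its curated transcript NM_020935.3 held 1.74% of that level in SW480 NC and 79.5% in HCT116 NC, at 0.13 TPM and 7.03 TPM. In the cells with USP51 it was listed at 0 in SW480 and at 7.33 TPM in HCT116. In SW480 NC the level was spread over predicted transcripts, led by XM_011511541.2 at 2.71 TPM. The gene counts of USP37 differed more between the lines than its TPM, with a count ratio of SW480 NC to HCT116 NC of 0.538 (0.473 to 0.612) against a TPM ratio of 0.847. The cause of that gap was not tested.

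Of 41 members, the leading transcript was the same with USP51 and in NC for 37 in SW480 and 35 in HCT116, and the same in both NC groups for 32. Within HCT116 USP35 showed a large exchange, with XM_017018053.1 at 68.2% of the level with USP51 and 11% in NC, on 76.7 and 9.48 counts. USP37 and USP35 were chosen with their values known. No replicate check exists for any of these shares, and how reads were assigned to transcripts was not tested.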
